A study of Mus musculus with 4 samples.

Results

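The 6 genes described here mark the glands of the mouse uterus or code for their secretions: Foxa2, Spink1, Prss28, Prss29, Cxcl15 and Wfdc3. They were picked by symbol from the 54152 genes of the deposited table, and all 6 were found. Their RNA was measured by poly-A RNA sequencing in the whole uterus of pregnant C57 mice, taken on day 4. There were 2 groups of 2 libraries, labelled by the p38α genotype as ff and dd. The series title names the contrast as wild type against p38α knockout, so ff is read as the control genotype and dd as the knockout. p38α is a stress-activated protein kinase, and Mapk14 is its gene. The sources used here do not give the Cre line, the cells in which the gene was deleted, the number of animals per library or the meaning of the letters. They also do not say whether the replicates are separate animals, so a p-value here reflects the spread between libraries, which may be technical.

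Uterine glands are tubes of epithelium that grow from the lumen into the stroma and release their products into the uterine cavity. Foxa2 is a forkhead transcription factor that, within the adult mouse uterus, marks the glandular epithelium, and mice that lack it there do not form working glands. In early mouse pregnancy the glands secrete the cytokine LIF, which the uterus needs before an embryo can attach, along with proteases, protease inhibitors and a chemokine. Prss28 and Prss29 encode the implantation serine proteinases, secreted enzymes of the tryptase family. Spink1 encodes a Kazal-type inhibitor of trypsin-like proteases, Cxcl15 an ELR-type chemokine also called lungkine, and Wfdc3 a protein with WAP domains, a fold common among protease inhibitors.

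The libraries held between 24619850 and 32451670 counts, and 3 counts corresponded to between 0.0901 and 0.127 CPM (counts divided by the library size scaled by TMM and brought to the usual CPM scale). Mapk14 itself was not lower in dd, with 89.7 ± 3.78 CPM for ff and 109.1 ± 5.79 CPM for dd (SD, n = 2, edgeR adjusted p = 0.12), so each direction below rests on the group labels alone. Counts over a whole gene do not show the loss of part of it. Of 18530 genes tested with edgeR's quasi-likelihood test, 8.39% were called at an adjusted p under 0.05, 4.52% higher and 3.86% lower in dd. At an unadjusted p under 0.05 the shares were 14.9% higher and 14.4% lower.

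The 6 genes did not move as 1 block. Spink1 fell 48.2-fold in dd, and it was the only member called, 1 of the 5 that passed the filter on low counts, where 3.86% of all tested genes were called lower. Prss28 and Prss29 had no count in either dd library, but nearly all of their ff counts came from a single library. Foxa2 and Cxcl15 were higher in both dd libraries than in either ff library without passing the test, and the groups overlapped for Wfdc3. Groups that do not overlap are common with 2 libraries each: 62.8% of the tested genes had none, 31.6% with dd higher and 31.3% with dd lower. In whole uteri, fewer gland cells and less RNA per gland cell cannot be told apart.

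**Figure D1:**
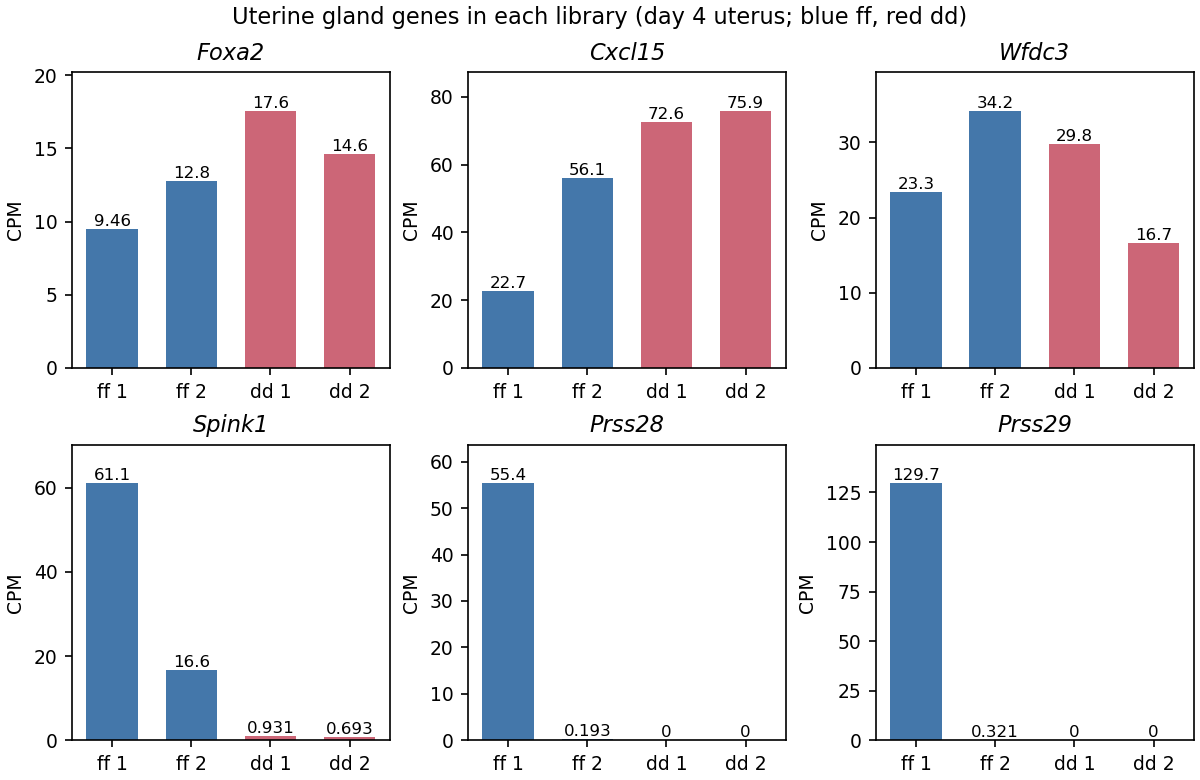
Level of each gland gene in each library, in CPM on a linear axis from 0, with 1 bar per library (blue ff, red dd) and the value above it. Foxa2, Cxcl15 and Wfdc3 were present in all 4 libraries, Spink1 was high in both ff libraries only, and Prss28 and Prss29 were high in ff replicate 1 only, at 55.4 and 129.7 CPM.

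Foxa2 (chromosome 2, 148042877 to 148046969, mm10, minus strand, protein coding) was counted 315 times in ff replicate 1, 398 times in ff replicate 2, 415 times in dd replicate 1 and 443 times in dd replicate 2. In CPM these are 9.46 and 12.8 for ff and 17.6 and 14.6 for dd. All 4 libraries thus held Foxa2 at between 9.46 and 17.6 CPM. For the nearest pair, dd was above ff by less than the step between the ff libraries. The difference was 1.45-fold (log2 change 0.53, SE 0.21, 95% interval −0.01 to 1.07) and did not pass (edgeR adjusted p = 0.174). The interval leaves room for no change and for a rise to a log2 change of 1.07. It holds no fall that would match that of Spink1.

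The other factors of the FOXA family were near 0 in these uteri. Foxa1 had 1 count in dd replicate 1 and none elsewhere, and Foxa3 had between 1 and 3 counts in each library. Foxa2 was therefore the only FOXA gene tested.

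Spink1 (chromosome 18, 43728082 to 43737557, minus strand, protein coding) was counted 2035 and 518 times in ff, against 22 and 21 times in dd. The levels were 61.1 and 16.6 CPM in ff and 0.931 and 0.693 CPM in dd. Both ff libraries were far above both dd libraries, although ff replicate 1 was 3.68 times ff replicate 2 (95% counting interval 3.34 to 4.06). The dd libraries lay within counting error of each other (ratio 1.34, interval 0.705 to 2.57).

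The fall of Spink1 was 48.2-fold, a log2 change of −5.59 (SE 0.80, 95% interval −7.65 to −3.53, edgeR adjusted p = 0.0292). Leaving out ff replicate 1 gave a log2 change of −4.36, and leaving out ff replicate 2 gave −6.25. When either dd library was left out the size was kept and the call ended, at −5.80 for replicate 1 (adjusted p = 0.078) and −5.38 for replicate 2 (adjusted p = 0.0948).

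Prss28 (chromosome 17, 25308646 to 25311876) and Prss29 (chromosome 17, 25318654 to 25322684) are neighbours on the plus strand, with 6777 bases between them. The targeted gene Mapk14 starts 3.37 Mb further along the same chromosome. Both proteases share a pattern across the libraries, so the promoters are shown to compare what lies upstream of each. The lines below run from 250 bases before to 50 bases after the RefSeq start (GRCm38.p6), at chr17:25308396-25308695 and chr17:25318404-25318703, plus strand. Capitals mark the only run of at least 10 letters that is the same in both at the same position. Runs that are shifted between the windows are not marked.
Prss28: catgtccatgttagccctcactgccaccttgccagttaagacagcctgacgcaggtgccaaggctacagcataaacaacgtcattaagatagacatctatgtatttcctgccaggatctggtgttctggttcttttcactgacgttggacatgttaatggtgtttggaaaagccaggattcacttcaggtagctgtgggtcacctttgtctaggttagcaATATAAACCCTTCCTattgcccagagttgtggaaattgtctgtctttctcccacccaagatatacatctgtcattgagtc
Prss29: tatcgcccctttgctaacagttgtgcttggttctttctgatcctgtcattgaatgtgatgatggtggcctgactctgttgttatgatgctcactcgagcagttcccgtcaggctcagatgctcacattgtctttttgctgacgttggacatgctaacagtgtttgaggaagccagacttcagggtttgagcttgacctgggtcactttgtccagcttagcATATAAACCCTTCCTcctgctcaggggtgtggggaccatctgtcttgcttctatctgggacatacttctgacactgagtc
The marked run is 15 bases long, starts 30 bases before the start site in both genes, and holds the TATA box letters TATAAA. Of 32851 RefSeq promoter windows of this length, 8.3% carry these letters on the gene strand. Further upstream the windows share another run that is as long, shifted by a base between them and so not marked. At the same position without gaps the pair had the same letter at 118 of 300 bases (39.3%). Among 32850 other promoter windows set against that of Prss28, Prss29 ranked 1, with a median of 24.7% over all of them and 34.7% for the next, Msgn1. Neither window held the FOXA letters TGTTTAC or TATTTAC on either strand, which 6.5% of windows do. Spink1 had no window among these promoters and was not searched for any motif. No window of the other members held the palindromic estrogen or progesterone response element, found in 23 and 3 of the 32851 windows.

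Prss28 was counted 1844 times in ff replicate 1, 6 times in ff replicate 2 and 0 times in both dd libraries. For Prss29 the counts were 4319 and 10 in ff, and likewise 0 in both dd libraries. A single library, ff replicate 1, thus held nearly all reads of both proteases. Its Prss28 level was 288-fold that of ff replicate 2 (95% counting interval 132 to 785), and its Prss29 level 404-fold (220 to 843).

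With 0 counts in dd, only a lower bound of the group difference can be given, against a floor of 3 counts over both dd libraries (0.0556 CPM). By that bound Prss28 was at least 516-fold lower in dd and Prss29 at least 1208-fold lower. These bounds hang on 1 library: with ff replicate 1 left out they dropped to 3.46 and 5.77, and with ff replicate 2 left out they went to 996 and 2332. Leaving out a dd library gave 290 and 678 (replicate 1) or 226 and 529 (replicate 2). Prss29 was not called (edgeR adjusted p = 0.182), and it entered the test only through its ff libraries. Prss28 did not pass the filter on low counts, which asked for about 10 counts in 2 libraries, and was not tested.

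Other settings gave other calls for this pair. Prss29 passed with no filter (edgeR adjusted p = 0.028) and with DESeq2 (adjusted p = 0.0329). It also passed with the replicate number as a block (edgeR adjusted p = 0.00819). The labels do not state that replicate numbers pair the libraries, and the replicate steps correlated by 0.02 between ff and dd. Prss29 was not tested without ff replicate 1. Without ff replicate 2 the fit has 1 ff library and no spread within ff, so it cannot decide a call. Prss28 passed with no filter (edgeR adjusted p = 0.0283) and did not with DESeq2 (adjusted p = 0.0539). The authors' deposited table gives unadjusted p-values of 2.55e-34 for Prss28 and 1.33e-41 for Prss29, with folds of 0.000152 and 6.49e-05. By comparison it gives 6.4e-22 for Spink1, whose ff libraries were both high. The longest stretch of identical letters in the Prss28 and Prss29 transcripts was 27 bases (GENCODE), and how reads that fit several genes were assigned is not stated. Prss28 took 29.9% of the reads of the pair in ff replicate 1 (exact 95% interval 28.8% to 31.1%) and 6 of 16 in ff replicate 2 (37.5%, interval 15.2% to 64.6%).

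Cxcl15 (chromosome 5, 90794534 to 90803067, plus strand, protein coding) went the other way from Spink1. Its counts were 755 and 1748 for ff, against 1715 and 2299 for dd. The levels were 22.7 and 56.1 CPM in ff and 72.6 and 75.9 CPM in dd, so that ff replicate 1 stood apart below the other libraries. Within ff, replicate 2 was 2.47 times replicate 1 (95% counting interval 2.27 to 2.70), while the dd libraries differed by 1.05 times (0.982 to 1.11). The group difference was 1.89-fold (log2 0.91, SE 0.42, 95% interval −0.17 to 2.0, edgeR adjusted p = 0.226) and did not pass. Leaving out ff replicate 1 brought the log2 change to 0.40, and leaving out ff replicate 2 brought it to 1.71. Each of these fits has 1 ff library, so it cannot decide a call. The promoter of Cxcl15 is shown because, with no window for Spink1, it is the only searched member window with FOXA letters (chr5:90794284-90794583, GRCm38.p6, plus strand). Capitals mark TATTTAC and TATAAA.
Cxcl15: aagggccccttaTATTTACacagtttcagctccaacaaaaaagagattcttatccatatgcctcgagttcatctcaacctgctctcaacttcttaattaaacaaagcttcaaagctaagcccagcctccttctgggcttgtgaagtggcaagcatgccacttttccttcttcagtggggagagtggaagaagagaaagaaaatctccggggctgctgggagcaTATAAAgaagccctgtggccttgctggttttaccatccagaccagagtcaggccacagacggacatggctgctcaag
The FOXA letters end before base 20 of the window, 238 bases upstream of the start at their first letter, and TATAAA begins 27 bases before it. No match was found in the windows of Foxa2 (3 start sites) and Wfdc3 for either FOXA motif. Presence or absence of these letters is a description of the windows and shows no binding.

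Wfdc3 (chromosome 2, 164731180 to 164745931, minus strand, protein coding) was counted 777 and 1065 times in ff, against 703 and 505 times in dd. The levels were 23.3 and 34.2 CPM in ff and 29.8 and 16.7 CPM in dd. The groups overlapped, since dd replicate 1 lay between the ff libraries and dd replicate 2 below both. The log2 change was −0.31 (SE 0.33, 95% interval −1.17 to 0.55, edgeR adjusted p = 0.576). Its sign turned without dd replicate 2 (0.052).

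Set against each other in the deposited FPKM values, which are scaled by gene length and depth, the order of the members changed with the library. In ff replicate 1 the order was Prss29 (109.9 FPKM), Spink1 (83.9), Prss28 (45.5), Cxcl15 (10.7), Wfdc3 (9.23) and Foxa2 (3.99). In ff replicate 2 Cxcl15 (26.3 FPKM) was first, followed by Spink1 (22.8), Wfdc3 (13.5), Foxa2 (5.38), Prss29 (0.271) and Prss28 (0.158). The RNA of 3 secretory genes thus led in 1 ff library, and 2 of these genes were at the bottom in the other. Both dd libraries had the same order: Cxcl15, Wfdc3, Foxa2 and Spink1, then Prss28 and Prss29 at 0.

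The dd means were 34.9 ± 1.35 FPKM for Cxcl15, 9.15 ± 3.59 for Wfdc3, 6.78 ± 0.827 for Foxa2 and 1.11 ± 0.222 for Spink1 (SD, n = 2). Wfdc3 and Foxa2 lay within the spread of Wfdc3 in dd, and the other steps exceeded the spread. In ff the means were 55.1 ± 77.5 FPKM for Prss29, 53.3 ± 43.2 for Spink1, 22.8 ± 32.1 for Prss28, 18.5 ± 11.1 for Cxcl15, 11.4 ± 3.01 for Wfdc3 and 4.69 ± 0.979 for Foxa2. In ff only the step from Wfdc3 to Foxa2 was larger than the SDs of both neighbours. For scale, the ff mean of Foxa2 exceeded that of 53.2% of tested genes, and the dd mean of Cxcl15 exceeded that of 92.3%.

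Of the 13 genes that mark epithelium at large, 7 were called higher in dd and none lower, against 4.52% and 3.86% of all tested genes. All 13 were above 0 (median log2 change 1.01, against 0.00 over all tested genes). They summed to 1284 and 1585 CPM in ff and to 3116 and 3576 CPM in dd. Their part in the change of each gland gene was not tested, since these markers do not separate glands from lumen.

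Of 8 markers of the luminal epithelium, the surface that faces the embryo, 1 was called higher and 0 lower by edgeR (median 1.01). Among all tested genes 4.52% were called higher and 3.86% lower. The unadjusted edgeR p was below 0.05 for 3 luminal markers above 0 and 1 below. Of all tested genes, 14.9% and 14.4% had such values. The luminal markers summed to 439.4 and 835.9 CPM in ff and 1533 and 2013 CPM in dd, mostly Calb1. Of 10 stromal markers, 5 were called lower (median −0.68), against 3.86% of all tested genes.

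Of 8 other genes known from the glands, none was called by edgeR (median 0.29). Unadjusted p-values under 0.05 were found for 1 above 0 and 2 below, against 14.9% and 14.4% of all tested genes. DESeq2 called 1 higher and 2 lower, where over all genes it called 1518 higher and 1342 lower of 31737. Lif, the gland cytokine, had 61.3 and 21.9 CPM in ff and 8.80 and 2.34 CPM in dd. It had the same order of libraries as Spink1, and its log2 change of −2.92 (SE 0.79) did not pass (edgeR adjusted p = 0.0895). DESeq2 called it (adjusted p = 0.047), as did edgeR with the replicate block (adjusted p = 0.00872), a pairing that the labels do not state. Its log2 change came to −1.99 when ff replicate 1 was left out and to −4.14 when dd replicate 1 was, in neither case with a call. Ttr, which codes for the carrier protein transthyretin, had 15.7 and 7.45 CPM for ff against 0.973 and 3.24 for dd (log2 −2.44, edgeR adjusted p = 0.0896). Its ff libraries were both above its dd libraries, DESeq2 called it (adjusted p = 0.000813), and leaving out 1 library moved the change between −3.57 and −1.80.

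Fxyd4, a regulator of the sodium pump, had 43.9 and 272.3 CPM in ff and 665.7 and 601.4 CPM in dd. As with Cxcl15, ff replicate 1 was the lowest library, and the log2 change of 2.0 (SE 0.83) did not pass (edgeR adjusted p = 0.19). With ff replicate 1 left out it came to 1.22, and with ff replicate 2 left out to 3.85. Aldh1a1, an enzyme that makes retinoic acid, was at 8.83 and 12.4 CPM in ff and at 25.5 and 63.0 CPM in dd (log2 2.06, edgeR adjusted p = 0.0658). Leaving out dd replicate 2 lowered this to 1.27, and leaving out dd replicate 1 raised it to 2.58. DESeq2 (adjusted p = 2.95e-05) and edgeR with the replicate block (adjusted p = 0.0212) called Aldh1a1. Sox9, Prom1, Pax8 and Prlr overlapped between the groups, with log2 changes between −0.02 and 0.80.

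**Figure D2:**
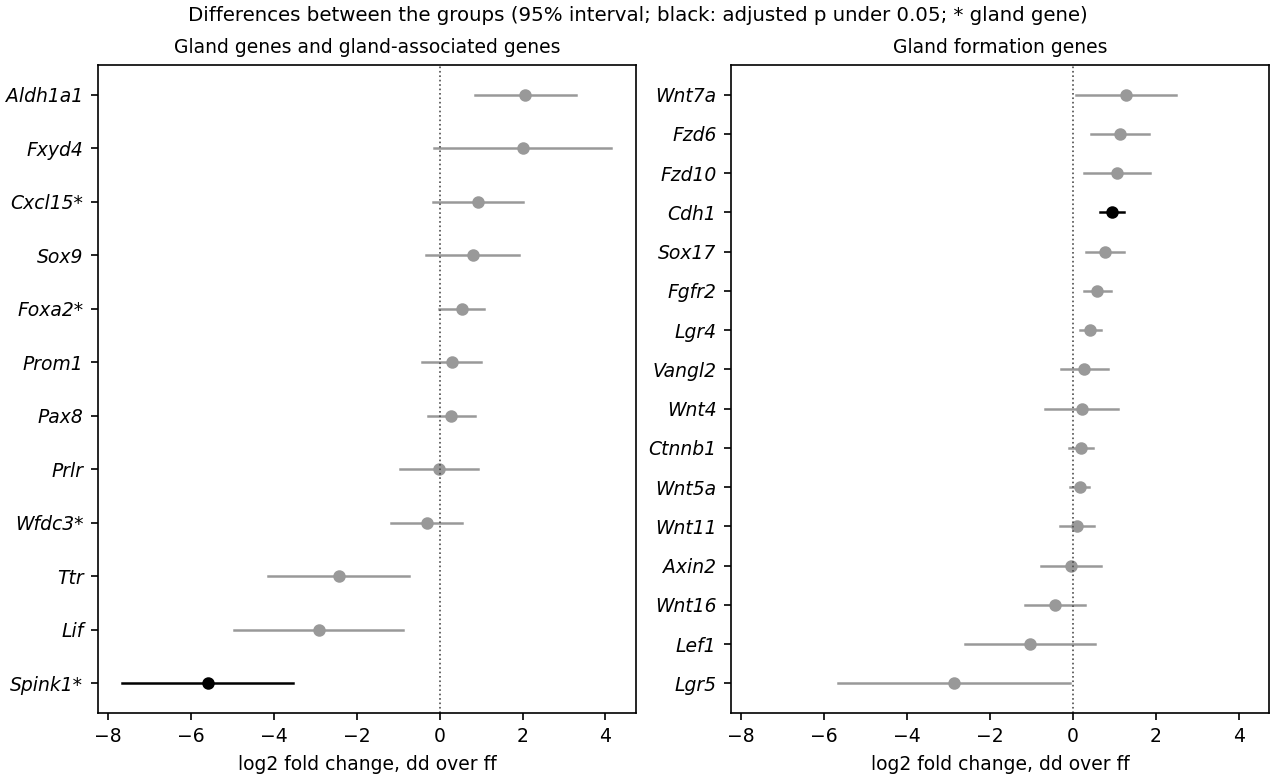
Log2 fold change of dd over ff (horizontal axis) with its 95% interval from edgeR for the tested gland genes (marked *), other gland-associated genes (left) and gland formation genes (right). Black points had an adjusted p under 0.05, which were Spink1 at −5.59 and Cdh1 at 0.96, and grey points did not. Prss29 is left out because its fitted value rests on 0 counts in dd.

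Genes linked to gland formation, mostly of WNT signalling, were tested for all 16 listed members. The epithelial cadherin Cdh1 was the only call, higher at 352.7 and 400.7 CPM in dd against 188.8 and 199.1 CPM in ff (log2 0.96, SE 0.11, edgeR adjusted p = 0.024). Leaving out ff replicate 1 or dd replicate 2 ended that call (adjusted p = 0.083 and 0.0607). In all, 12 of 16 members were above 0 and 4 below (median 0.25), with 7 higher and 1 lower at an unadjusted p under 0.05, against 14.9% and 14.4% of all tested genes. The epithelial markers, which also hold Cdh1, had a median of 1.01 beside them. DESeq2 called 7 of the gland formation genes higher, and the replicate block 4. Over all genes DESeq2 called 1518 of 31737 higher, and the replicate block 878 of 18530, against 838 of 18530 in the main fit.

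Sox17, a transcription factor of uterine epithelium, had 168.1 and 230.9 CPM in ff and 327.3 and 356.8 CPM in dd (log2 0.78, edgeR adjusted p = 0.0656). Its log2 change was 1.02 with ff replicate 2 left out and 0.57 with ff replicate 1 left out. The FGF receptor gene Fgfr2 (log2 0.59, adjusted p = 0.0569) and the R-spondin receptor gene Lgr4 (0.42, adjusted p = 0.0671) were also above 0 without a call. Lgr5, a stem cell receptor of the same kind, was chosen for mention after its values were seen. It had 76.1 CPM in ff replicate 1 and 8.03 in ff replicate 2, against 3.98 and 7.46 CPM in dd, so that 1 ff library alone was high (edgeR adjusted p = 0.164).

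Relatives of the secreted members were compared next, family by family. In the tryptase cluster, 5 of 13 genes were tested and none was called by edgeR. At an unadjusted p under 0.05 there was 1 higher and 0 lower, against 14.9% and 14.4% of all tested genes. The mast cell tryptase Tpsb2 had 3.42 and 1.73 CPM for ff against 8.46 and 4.98 for dd (adjusted p = 0.124), and was called with DESeq2 (0.035) and with the replicate block (0.0448). Prss22, an epithelial protease gene, had 7.06 CPM in ff replicate 1 and between 0.482 and 1.52 CPM in the other 3 libraries (adjusted p = 0.466). Its log2 change of −1.38 became −2.28 when ff replicate 2 was left out and 1.58 when ff replicate 1 was. Prss30 had 0.604 ± 0.037 CPM for ff against 0.398 ± 0.0958 for dd (SD, n = 2, adjusted p = 0.324). Prss34, which lies beside Prss28, had between 1 and 6 counts per library. High counts in ff replicate 1 were thus not shared by the neighbouring proteases Prss34, Tpsab1, Tpsb2 and Tpsg1.

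Of the Kazal inhibitors, 3 of 12 were tested, with Spink12 called higher and Spink1 called lower, against 4.52% and 3.86% of all tested genes. Spink12 entered the test only through its dd libraries. Spink12 was counted 0 and 2 times in ff, against 20 and 27 times in dd, a ratio of 28.1 (95% counting interval 7.35 to 239; edgeR adjusted p = 0.036). Leaving out ff replicate 1, dd replicate 1 or dd replicate 2 ended that call (adjusted p = 0.102, 0.0908 and 0.11), and its level in dd stayed under 1 CPM. Spink8 had 0.631 and 2.79 CPM for ff against 9.61 and 16.7 for dd without a call (log2 2.95, edgeR adjusted p = 0.075). It was called with DESeq2 (adjusted p = 6.89e-05) and with the replicate block (edgeR adjusted p = 0.0221). The log2 change was 4.37 with ff replicate 2 left out and 2.24 with ff replicate 1 left out.

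Of the 12 tested WAP domain genes, 5 were called higher in dd and none lower, 41.7% against the 4.52% of all tested genes. In all, 9 of them were above 0 and 3 below, Wfdc3 included (median 1.43). The epithelial markers had a median of 1.01 beside them, and their part in these changes was not tested. Slpi, an antiprotease of mucosal surfaces, rose from 2.44 ± 0.224 to 30.1 ± 6.68 CPM (log2 3.62, edgeR adjusted p = 0.0146). Its log2 change lay between 3.38 and 3.84 with any 1 library left out. Wfdc2, an epithelial secreted protein, rose 2.92-fold from 237.3 ± 14.7 to 692.8 ± 112.2 CPM. Wfdc10 (log2 2.08), Wfdc15b (1.43) and Wfdc18 (2.66) were the other calls. Without ff replicate 1 only Slpi kept its call, Wfdc15b also lost its call without either dd library, and Wfdc18 lost its call whichever library was left out. Whether Wfdc3 differed from its family was not tested.

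Among ELR chemokines and their receptors, 3 of 8 genes were tested and none was called by edgeR, with 0 higher and 1 lower at an unadjusted p under 0.05. Cxcl15 was the most abundant. Cxcl5, a neutrophil attractant, had 2.85 and 1.41 CPM for ff against 0.762 and 0.066 for dd (log2 −2.44, adjusted p = 0.166; −4.93 to −1.48 with 1 library left out), and Cxcl1 was under 0.52 CPM in each library. The receptor gene Cxcr1 had no count, and Cxcr2 had between 0 and 20.

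**Figure D3:**
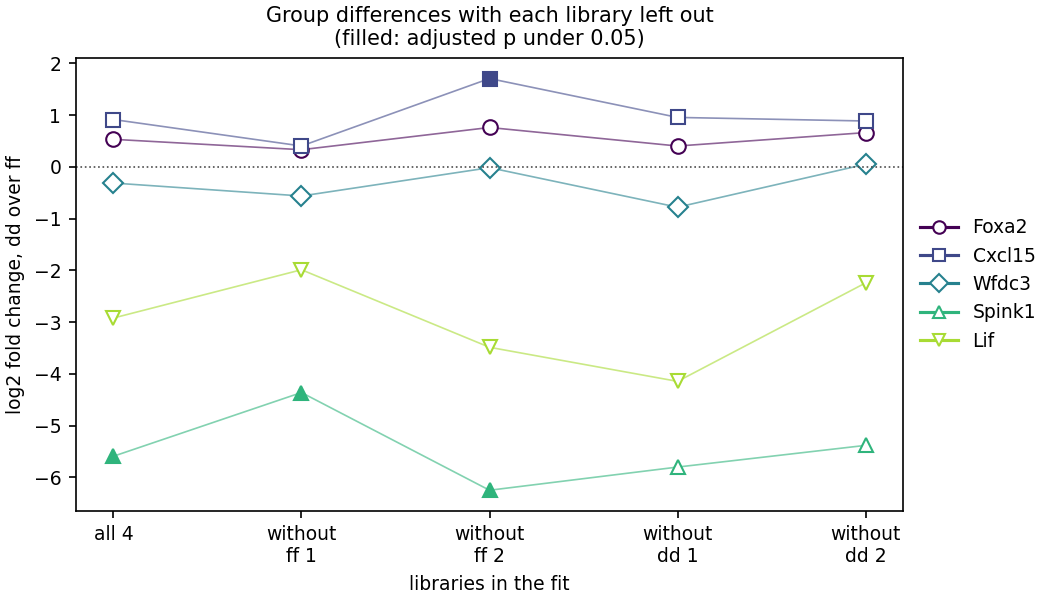
Log2 fold change of dd over ff (vertical axis) of 4 gland genes and Lif with all 4 libraries and with each library left out (horizontal axis). Filled symbols had an adjusted p under 0.05, and lines only link the values of a gene. Spink1 stayed between −6.25 and −4.36, Cxcl15 ranged from 0.40 to 1.71, and Wfdc3 crossed 0.

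Genes most like each tested member were found by the root mean square difference of centred log2 CPM over the 4 libraries. A prior count of 0.5 was added to each count. The search covered the 18530 tested genes less the Gm and Rik loci among them. For Spink1 they were Btn1a1 (difference 0.10), Tac2 (0.32) and Tacr1 (0.42). Tac2 codes for the peptide neurokinin B and Tacr1 for the receptor of substance P, and their log2 changes were −5.01 and −5.28 (edgeR adjusted p = 0.0303 and 0.0264). Neither call held when ff replicate 1, dd replicate 1 or dd replicate 2 was left out (adjusted p of 0.0506, 0.0848 and 0.1 for Tac2, and of 0.0504, 0.0703 and 0.0768 for Tacr1). Btn1a1, a butyrophilin gene, was counted 54 and 12 times in ff and 0 times in dd. Its closeness to Spink1 thus depends on the prior count, and its fitted log2 change was −7.91 against −5.59 for Spink1. These genes were chosen for their likeness to Spink1, so the direction they share with it is no separate result.

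For Prss29 the nearest tested genes were far less alike: Cyp26a1 (2.73), Btn1a1 (2.77) and Spink1 itself (2.86). Cyp26a1, the enzyme that clears retinoic acid, had 7522 counts in ff replicate 1 and 101, 72 and 75 in ff replicate 2 and dd replicates 1 and 2. Prss28, which was not tested and so was not eligible, differed from Prss29 by 0.52 on this measure. All these differences depend on the prior count, since Prss29 had 0 counts in dd.

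For Foxa2 the nearest were Tcf24 (0.02), Metap1 (0.03) and Knop1 (0.03), and for Cxcl15 they were Chrna2 (0.07), Sycp3 (0.08) and Tubb4b-ps1 (0.08). Extl1 (0.04), Bcl2a1d (0.05) and BC051019 (0.05) were nearest to Wfdc3. With 4 libraries and small changes many genes come this close, and of these 9 genes all but Metap1 and Knop1 had at most 133 counts in any library.

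**Figure D4:**
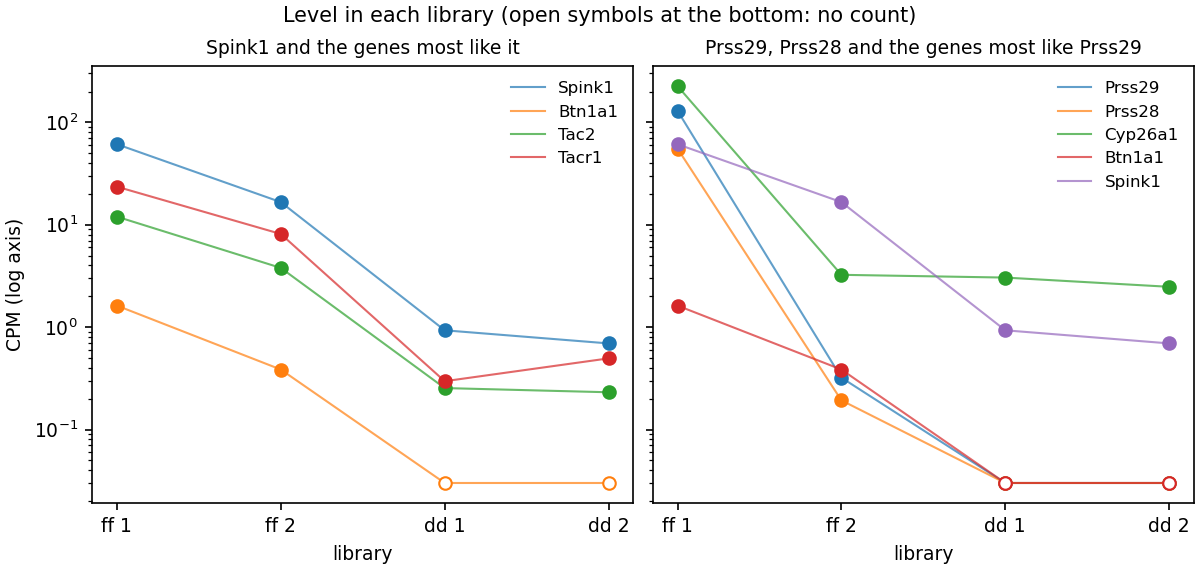
Level in each library (CPM, logarithmic axis) of Spink1 with the 3 genes most like it (left) and of Prss29 and Prss28 with the 3 genes most like Prss29 (right). Lines only link the values of a gene, and open symbols at the bottom stand for no count. Spink1 and the 3 genes chosen for likeness to it are high in ff replicate 1, lower in ff replicate 2 and lowest in both dd libraries, while Prss28, Prss29 and Cyp26a1 are high in ff replicate 1 alone.

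Several members are also known from other organs, so markers of those cells were checked. Spink1 is made in pancreatic acinar cells. The 9 acinar markers summed to between 4.46 and 6.04 CPM, mostly Cela1, and none of the 3 tested was called by edgeR (0 higher and 1 lower at an unadjusted p under 0.05). Prss1 had no count, and Prss2 had 1 count in all libraries together. Cpa1, named after its values were seen, had 11 and 14 counts for ff against 1 and 0 for dd (edgeR adjusted p = 0.0603), and its part in the change of Spink1 was not tested. Cxcl15 is made in lung. In these uterus libraries the lung markers Sftpc, Sftpb, Sftpa1 and Scgb1a1 had at most 3 counts and Nkx2-1 had none. Of the 7 lung markers only Sftpd was tested, with 26.3 and 0.546 CPM for ff against 13.8 and 18.0 for dd. Mast cell markers summed to 85.2 and 47.8 CPM in ff and to 68.1 and 43.7 CPM in dd, mostly Kit. Kit was below 0 (log2 −0.79), while the other 4 tested genes were above 0 (median of all 5 tested, 1.14). None of the 5 was called by edgeR (2 higher and 1 lower at an unadjusted p under 0.05, against 14.9% and 14.4% of all tested genes). Neutrophil markers summed to between 3.47 and 6.97 CPM. Markers of oviduct and ciliated cells summed to 225.1 and 202.2 CPM for ff against 322.6 and 360.1 for dd. Of these 6 genes 2 were called higher, against 4.52% of all tested genes. Endothelial markers were all 6 called lower (median −0.94), against 3.86% of all tested genes. None of 6 muscle markers was called by edgeR (median 0.29). At an unadjusted p under 0.05 there were 0, against 14.9% higher and 14.4% lower of all tested genes.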

How the data were processed

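Per the labels' protocols, RNA of whole uteri was extracted with TRIzol and libraries were made with a TruSeq kit. STAR, edgeR and mm10 are named in the submitters' processing notes, without versions. The read counter, annotation and use of strand are not stated. The deposited table holds whole-number counts per gene symbol, counts rescaled by the authors (a signal, not tested), FPKM values per the file headers, the authors' fold as a ratio of dd to ff, and the authors' p-value, unadjusted and from an unnamed test.

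Counts were compared with edgeR 4.0.16 (R 4.3.3): filterByExpr, TMM, glmQLFit and glmQLFTest without a block, Benjamini-Hochberg over all tested genes, all 4 libraries. Intervals come from that fit, and ratios of counts have exact binomial 95% intervals that cover counting error only. DESeq2 1.42.0 was an alternative. Replicates differed by more than sampling noise (chi-square per degree of freedom 35.3 in ff and 36.0 in dd). Positions come from GENCODE M21, and promoters from RefSeq GRCm38.p6, which held 5 of the 6 members and not Spink1. Named genes were the members, Mapk14, called members of each list (or the 4 with the smallest p) and the 3 genes most like each member. Members and lists were chosen with earlier results of these data known.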

Additional observations from a re-analysis of the deposited data

How the results depend on the processing

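Among the 6 gland genes, 1 was called lower and 0 higher, and the same with DESeq2 size factors, with library size alone and with a filter of 1 CPM in 2 libraries. With no filter 3 were called lower, and 2 with DESeq2 or the replicate block. Leaving out 1 library gave 0 to 3 lower and 0 to 1 higher. Of the other gland-associated genes 0 were called in either direction; there were 1 higher and 2 lower with no filter or with DESeq2, 1 higher and 1 lower with the replicate block, and 0 to 1 higher and 0 to 0 lower with a library left out. Gland formation genes had 1 higher and 0 lower; 6 and 1 with no filter, 7 higher with DESeq2, 4 higher with the replicate block, and 0 to 3 higher and 0 to 1 lower with a library left out. Over all genes 838 were higher and 716 lower; 1584 and 1363 with no filter, 1518 and 1342 with DESeq2, 62 to 726 higher and 28 to 472 lower with a library left out, and 751 and 1020 with library size alone, where 42.4% of calls were higher against 53.9%. With a library left out, log2 changes ran from −0.78 to 0.052 for Wfdc3, from −0.75 to 0.0097 for Extl1 and from −0.88 to 0.077 for Bcl2a1d, above 0 without dd replicate 2, and from −2.28 to 1.58 for Prss22 and from −0.60 to 0.22 for Cxcl1, above 0 without ff replicate 1. The cause was not tested, except that a fit with 3 libraries has fewer samples. Such a fit has 1 library in a group and no spread within it, so its calls cannot decide a difference. Replicate numbers were not taken to pair the samples: the steps from replicate 1 to 2 correlated by 0.02 between ff and dd over 18530 genes. A count of 0 in a library allows up to 3 counts, between 0.0901 and 0.127 CPM, and covers counting error only.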

Other observations

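Genes high in a single library were counted after the values of Prss28 and Prss29 had been seen. With at least 100 counts in a library and at least 50 times the CPM of each other library, there were 4 such genes in ff replicate 1, 2 in ff replicate 2 and 0 in each dd library, among 12642 to 13187 genes with 100 counts. The 4 genes of ff replicate 1 were Prss28, Prss29, Cyp26a1 and Tmprss11d, a transmembrane serine protease gene with 206 counts there and 0 in each of the other 3 libraries.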
